A study of Mus musculus with 6 samples.

Results

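Ccl3, Ccl4, Ccl5 and Xcl1 encode chemokines that natural killer (NK) cells secrete when they are activated. These 4 genes were taken by symbol from the 559 genes of the deposited table, and all 4 were found. They were followed in oleic acid (OA) treated and control NK cells from C57BL/6 mouse spleen. The cells had been purified and kept for 36 h, with 0.2 mM OA, a monounsaturated fatty acid, in 3 libraries and without it in 3 control libraries. The labels state that the treatment was performed 1 time and do not tie libraries to animals, so the p-values measure the spread between these libraries, which may be technical. The question was how OA changes the transcripts of NK cells, and here whether the 4 chemokine transcripts moved in the same direction.

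Chemokines are small secreted proteins that guide leukocytes along a gradient by binding receptors on their surface. CCL3 and CCL4 (MIP-1 alpha and MIP-1 beta) are induced rapidly on activation in NK cells and T cells and also in macrophages and other myeloid cells. CCL5 (RANTES) is a typical product of cytotoxic lymphocytes, among them memory T cells and NK cells. XCL1 (lymphotactin) is made by NK cells and T cells, and its receptor XCR1 marks cross-presenting dendritic cells. CCL3 and CCL5 bind the receptor CCR1, among others.

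The coding sequences are shown because they separate the families to which these genes belong. The stretches below are 60 bases of the coding strand, 5′ to 3′, read from GENCODE M21 transcripts (GRCm38), in frame and centred near the first cysteine codon after codon 25, with cysteine codons in capitals.
Ccl3: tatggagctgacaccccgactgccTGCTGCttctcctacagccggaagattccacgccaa
Ccl4: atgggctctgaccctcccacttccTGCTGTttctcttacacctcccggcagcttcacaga
Ccl5: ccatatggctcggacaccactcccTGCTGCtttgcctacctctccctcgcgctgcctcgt
Xcl1: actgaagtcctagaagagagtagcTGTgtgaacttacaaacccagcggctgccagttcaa
In Ccl3, Ccl4 and Ccl5 this cysteine codon was followed at once by another, the arrangement that gives the CC family its name, and in Xcl1 it stood alone, as the name of the C family says. After codon 25, the CC genes each had 4 cysteine codons and Xcl1 had 2. Ccl3 and Ccl4, each of 92 codons before the stop, were identical at 68.4% of aligned coding positions, the highest of the 6 pairs, and Ccl5 and Xcl1 at 45.7%, the lowest. None of the 50-base words in the GENCODE transcripts of the 4 genes (717 in Ccl3, 611 in Ccl4, 909 in Ccl5 and 474 in Xcl1) occurred in a transcript of another gene, so reads of that length would not be shared between them without mismatches.

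Of the 6 libraries, OA replicate 3 stood apart, in that it held the most heart muscle transcript: the 12 listed genes of a heart muscle list, drawn up after the data were seen, summed to 6285 TPM there, against 46.7 and 460 TPM in OA replicates 1 and 2 and 32.1 to 55.2 TPM in the control libraries. OA replicate 2 also stood above the control libraries, and OA replicate 1 lay within their range. Results are therefore also given without replicate 3, and the values of OA replicate 1 are given for each gene. TPM is a transcript's share of its library, corrected for transcript length, so levels can be set side by side between genes. It keeps no read number, and the depth is unknown. The 559 listed genes each had an authors' Q value under 0.05 on these same libraries, so every gene in the table, the 4 chemokine genes included, had to differ between the groups. The tests below describe listed genes and are not independent evidence of a change.

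OA-treated NK cell libraries held more Ccl3 and Ccl4 transcript and less Ccl5 and Xcl1 transcript than control libraries. Ccl3 and Ccl4 were 1.42 and 1.46 times the control mean, and Ccl5 and Xcl1 were 0.713 and 0.693 times it. The chemokine genes thus divided, with the CC family itself split between both directions. In limma on log2(TPM + 1), fitted over all 559 genes with Benjamini-Hochberg adjustment, 2 of the 4 rose and 2 fell, where 36.0% of listed genes rose, 40.1% fell and 76.0% were called in either direction. For each of the 4, all OA libraries lay on 1 side of all control libraries, as they did for 93.6% of listed genes (45.1% higher and 48.5% lower in OA). Against these backgrounds, that all 4 genes were called is not a result about them.

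Ccl3 stood at 2633, 2815 and 2702 TPM in OA replicates 1, 2 and 3, and at 2009.6, 2093 and 1621 TPM in control replicates 1, 2 and 3. The OA libraries lay close together and all above the control libraries, of which replicate 3 was the lowest. The means were 2717 ± 91.7 TPM in OA and 1908 ± 252 TPM in control (SD, n = 3 each), a log2 fold change of 0.52 (SE 0.110, 95% confidence interval 0.24 to 0.80, adjusted p = 0.0260, limma). Ccl3 was the most abundant of the 4 genes in both groups and had rank 5 in OA and rank 7 in control among the 559 genes by mean level.

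Ccl4 stood at 1188, 1267 and 1224 TPM in OA replicates 1, 2 and 3, and at 876, 946 and 703 TPM in control replicates 1, 2 and 3. The pattern was that of Ccl3, with the highest level in OA replicate 2 and the lowest in control replicate 3. Ccl4 averaged 1227 ± 39.6 TPM in OA and 842 ± 125 TPM in control (SD, n = 3 each), a log2 fold change of 0.55 (SE 0.120, 95% confidence interval 0.25 to 0.86, adjusted p = 0.0260, limma).

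Ccl5 stood at 1232, 1143 and 997 TPM in OA replicates 1, 2 and 3, and at 1599.6, 1496 and 1629 TPM in control replicates 1, 2 and 3. All OA libraries were below all control libraries, and OA replicate 3 was the lowest. Ccl5 averaged 1124 ± 119 TPM in OA and 1575 ± 69.7 TPM in control (SD, n = 3 each), a log2 fold change of −0.49 (SE 0.0932, 95% confidence interval −0.73 to −0.26, adjusted p = 0.0260, limma). In the authors' deposited table Ccl5 had a log2 fold change of −0.48 and a Q value of 6.05e-10, the 5th smallest of the 559 and the smallest of the 4 genes.

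Xcl1 stood at 394, 376 and 327 TPM in OA replicates 1, 2 and 3, and at 525, 484 and 573 TPM in control replicates 1, 2 and 3. It was the least abundant of the 4 in every library, and OA replicate 3 was again the lowest. Xcl1 averaged 366 ± 34.5 TPM in OA and 528 ± 44.3 TPM in control (SD, n = 3 each), a log2 fold change of −0.53 (SE 0.101, 95% confidence interval −0.78 to −0.27, adjusted p = 0.0260, limma). In the authors' deposited table the Q values were 1.63e-07 for Xcl1, 8.34e-08 for Ccl4 and 0.00097 for Ccl3, and the signs of all 4 log2 fold changes were those of limma.

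**Figure D1:**
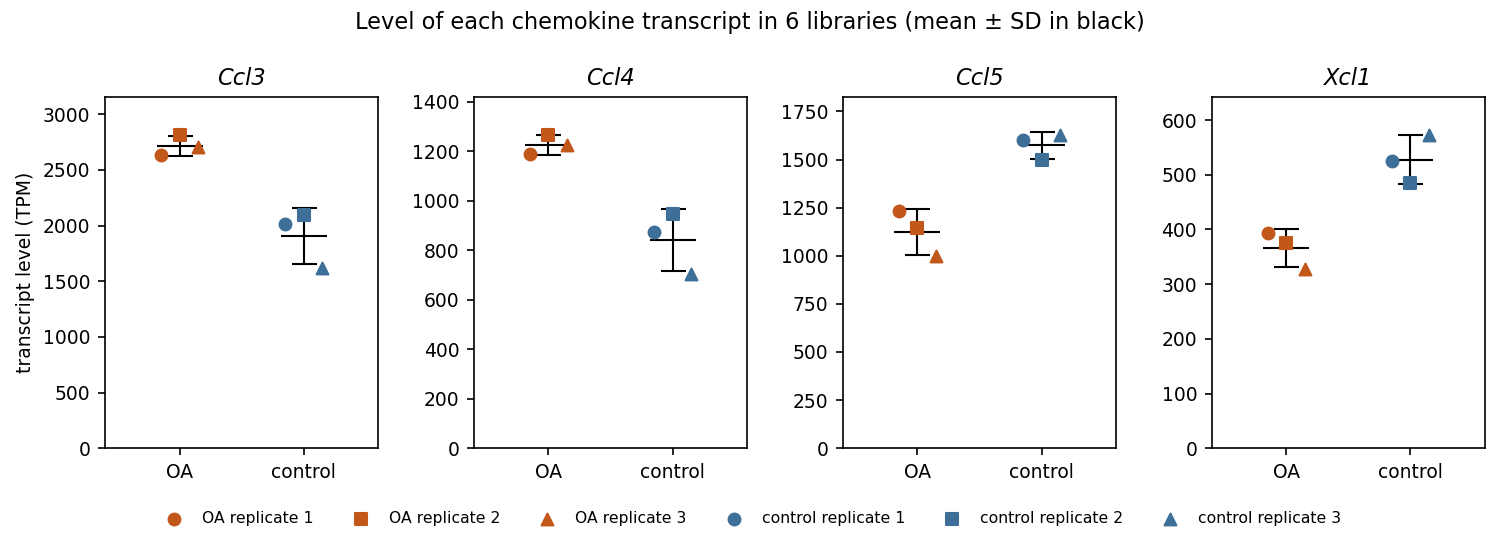
Level of each chemokine transcript in TPM (y axes, each from 0) in the 3 OA libraries (orange, left) and the 3 control libraries (blue, right), with marker shapes for replicates 1 to 3 and the mean ± SD in black. All OA libraries lie above all control libraries for Ccl3 and Ccl4 and below them for Ccl5 and Xcl1.

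The calls of all 4 genes were lost in limma without OA replicate 2 (adjusted p = 0.0793 for each) and without control replicate 1 (adjusted p = 0.0662 for each), where 0 of the 559 genes passed, although the log2 fold changes were between 0.49 and 0.59 for Ccl3 and Ccl4 and between −0.55 and −0.48 for Ccl5 and Xcl1. Without OA replicate 3, the library with the most heart muscle transcript, the log2 fold changes were 0.52 for Ccl3, 0.55 for Ccl4, −0.41 for Ccl5 and −0.45 for Xcl1, and all 4 passed (adjusted p between 0.0357 and 0.0406, limma).

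The levels set in order changed between the groups. In OA the order of mean levels was Ccl3, Ccl4, Ccl5 and Xcl1, and in control it was Ccl3, Ccl5, Ccl4 and Xcl1. Ccl4 (1227 ± 39.6 TPM) and Ccl5 (1124 ± 119 TPM) overlapped between libraries in OA, where Ccl4 was the lower of the pair in replicate 1 and the higher in replicates 2 and 3. In control libraries Ccl5 was above Ccl4 in 3 of 3 libraries. Ccl3 and Ccl5 were neighbours in control, where Ccl3 was the higher in replicates 1 and 2 and was just below Ccl5 in replicate 3 (1621 against 1629 TPM).

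Together the 4 transcripts summed to 5447, 5600.2 and 5250.5 TPM in OA replicates 1, 2 and 3, and to 5010.4, 5020.1 and 4526 TPM in control replicates 1, 2 and 3. The sum was 1.1196 times the control value in OA, nearer to 1 than the ratio of any of the 4 genes alone, since the difference of OA minus control was 1193 TPM for Ccl3 and Ccl4 together and −613 TPM for Ccl5 and Xcl1 together. Ccl3 made up 50.02% ± 1.58 of the sum in OA and 39.2% ± 3.05 in control, and Ccl4 22.6% ± 0.752 in OA and 17.3% ± 1.66 in control (SD, n = 3 each). Ccl5 made up 20.7% ± 1.83 in OA and 32.6% ± 3.14 in control, and Xcl1 6.72% ± 0.501 in OA and 10.9% ± 1.55 in control. The ratio of OA to control was 1.28 for the share of Ccl3, 1.31 for that of Ccl4, 0.634 for that of Ccl5 and 0.615 for that of Xcl1.

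**Figure D2:**
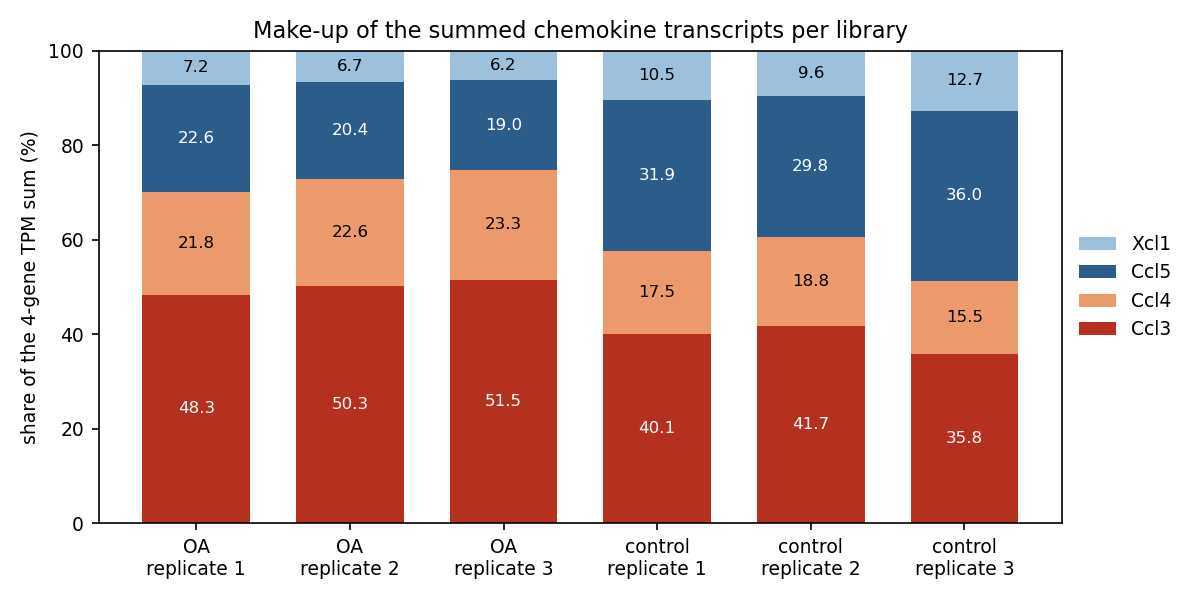
Share of each gene (%, y axis) in the summed TPM of Ccl3, Ccl4, Ccl5 and Xcl1 in each library, OA replicates on the left and control replicates on the right. Ccl3 and Ccl4 make up 70.2% to 74.8% of the sum in OA libraries and 51.4% to 60.5% in control libraries.

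Ratios within a library do not depend on how the libraries are scaled, so they show how far the genes differed in the size of their response. The Ccl3 to Ccl4 ratio was 2.22, 2.22 and 2.21 in OA replicates 1, 2 and 3 and 2.29, 2.21 and 2.30 in control replicates 1, 2 and 3. The Ccl5 to Xcl1 ratio was 3.13, 3.04 and 3.05 in OA replicates 1, 2 and 3 and 3.05, 3.09 and 2.84 in control replicates 1, 2 and 3. The libraries of the groups overlapped for both ratios, whose OA means were 0.976 and 1.03 times the control means. The differences in log2 ratio, OA minus control, were −0.04 for Ccl3 over Ccl4 (exact two-sided permutation test, p = 0.3, adjusted p = 0.36 over 6 pairs) and 0.04 for Ccl5 over Xcl1 (exact permutation p = 0.6, adjusted p = 0.6). A difference that misses the threshold does not show that the pair responded alike.

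The 4 ratios that cross the pairs are higher in every OA library because the levels of each gene already do not overlap, so their separation adds nothing and only their size is described. Ccl3 over Ccl5 was 2.14, 2.46 and 2.71 in OA replicates 1, 2 and 3, and 1.26, 1.399 and 0.995 in control replicates 1, 2 and 3. Ccl4 over Xcl1 was 3.02, 3.37 and 3.74 in OA replicates 1, 2 and 3, and 1.67, 1.95 and 1.23 in control replicates 1, 2 and 3. The log2 differences, OA minus control, were 1.01 for Ccl3 over Ccl5, 1.05 for Ccl3 over Xcl1, 1.04 for Ccl4 over Ccl5 and 1.08 for Ccl4 over Xcl1, with OA means of the ratios 2.003 to 2.09 times the control means. Without OA replicate 3 the 4 differences were between 0.93 and 1.01.

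**Figure D3:**
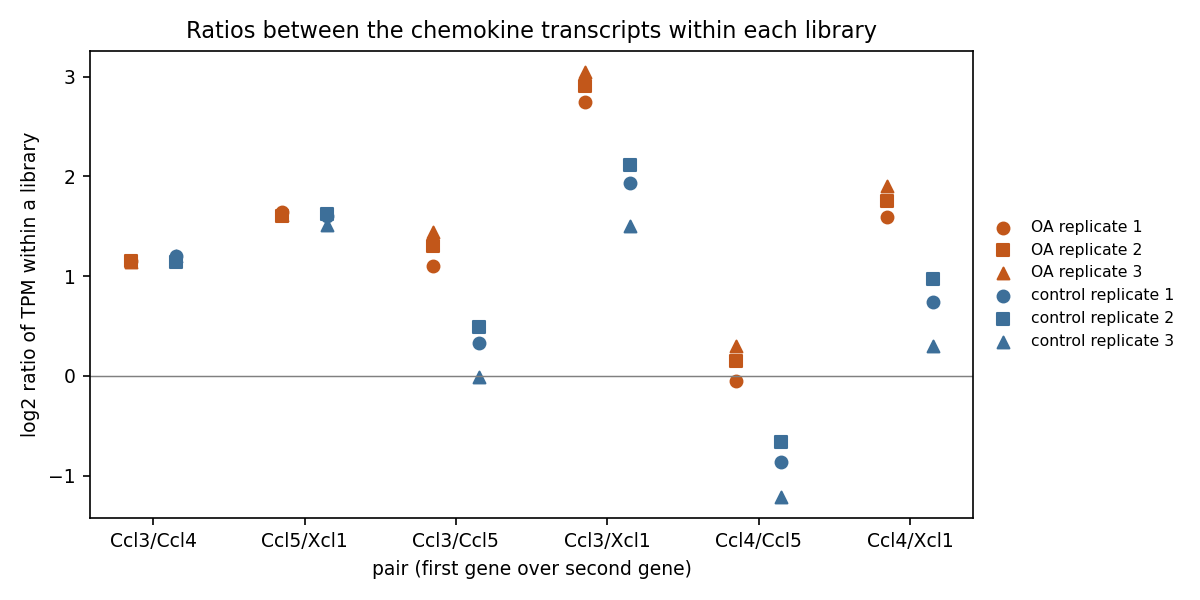
Log2 ratio of TPM (y axis) between the genes of each of the 6 pairs (x axis, first gene over second) within each library, OA in orange left of control in blue, with marker shapes for replicates. The 2 pairs on the left, Ccl3/Ccl4 and Ccl5/Xcl1, overlap between the groups, and the other 4 pairs are higher in every OA library.

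Deviations within a group were compared gene by gene. In control replicate 3, the level deviated from the control mean by −15.05% for Ccl3 and −16.4% for Ccl4, and by 3.42% for Ccl5 and 8.62% for Xcl1. In control replicate 2 the signs were the other way, with deviations of 9.72% for Ccl3, 12.4% for Ccl4, −4.995% for Ccl5 and −8.17% for Xcl1. In OA replicate 3, Ccl5 and Xcl1 deviated from their OA means by −11.3% and −10.5%, while Ccl3 and Ccl4 deviated by −0.52% and −0.19%. The pairs did not part in every library: in control replicate 1 the deviations were 5.33%, 4.06%, 1.57% and −0.45% for Ccl3, Ccl4, Ccl5 and Xcl1, and in OA replicate 2 all 4 were above their OA means, by 3.61%, 3.32%, 1.69% and 2.78%.

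Likeness was measured as the root mean square difference between gene-centred log2(TPM + 1) values over the 6 libraries, where smaller is more alike. Of 558 other genes, Ccl4 was the nearest to Ccl3 (0.0256), and Ccl3 was the second nearest to Ccl4, behind Syt13 (0.0225), a synaptotagmin gene that averaged 11.5 ± 0.211 TPM in OA and 7.51 ± 1.24 TPM in control. Ccl5 was the second nearest to Xcl1 (0.0434), behind Ly6i (0.0188), a gene of the GPI-anchored Ly6 family that averaged 356 ± 37.1 TPM in OA and 515 ± 37.4 TPM in control. Across the pairs the distance was far greater, at 0.53 to 0.58. Genes that moved in opposite directions must lie far apart by this measure, so the distance restates the directions and adds nothing. The next neighbours of Ccl3 were Mmp8 (0.0321), which encodes a collagenase known from neutrophils, and Phlda1 (0.0329), and Mmp8 was also the third of Ccl4 (0.0347). The nearest to Ccl5 were Hdc (0.0329), which encodes the enzyme that makes histamine, Ly6i (0.0397) and Il2ra (0.0412), which encodes CD25 of the IL-2 receptor, with Xcl1 the 6th, and the third of Xcl1 was Pim2 (0.0496), a kinase gene induced by cytokines. Over 6 libraries in 2 groups, and in a table selected on the group difference, many genes lie close to each other by this measure.

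Ccl3 and Ccl4, which rose, are neighbours on 1 chromosome, and Ccl5 and Xcl1, which fell, lie on different chromosomes. Per GENCODE M21 on GRCm38, Ccl5 lies at chr11:83525778-83530518 on the minus strand, Ccl3 at chr11:83647844-83649355 on the minus strand and Ccl4 at chr11:83662584-83664683 on the plus strand, each with 3 exons in the transcript used here. Ccl3 and Ccl4 are 13228 bases apart, and Ccl5 and Ccl3 are 117325 bases apart. Xcl1 lies on another chromosome, at chr1:164931644-164935527 on the minus strand. Between Ccl5 and Ccl3 lie the listed chemokine genes Ccl9 and Ccl6, both of which rose. Ccl9 averaged 195 ± 17.3 TPM in OA and 101 ± 26.7 TPM in control (adjusted p = 0.0260, limma), and Ccl6 averaged 118 ± 2.82 TPM in OA and 96.1 ± 3.597 TPM in control (SD, n = 3 each; adjusted p = 0.0260, limma). Of the 5 listed genes in this stretch of chromosome 11, Ccl5 was the 1 that fell, where 36.0% of all listed genes rose and 40.1% fell. With so few genes, this count describes the stretch and is not a result about position.

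The RefSeq promoter table held 2 of the 4 genes, Ccl3, which rose, and Xcl1, which fell. They are shown because they are a pair with opposite directions; each line is the 250 bases before the RefSeq start on GRCm38.p6, on the gene's own minus strand (chr11:83649379-83649628 for Ccl3 and chr1:164935523-164935772 for Xcl1), with motif matches in capitals. RefSeq and GENCODE place the starts differently: the RefSeq window reaches 5 bases into the GENCODE gene of Xcl1 and ends 23 bases before that of Ccl3.
Ccl3: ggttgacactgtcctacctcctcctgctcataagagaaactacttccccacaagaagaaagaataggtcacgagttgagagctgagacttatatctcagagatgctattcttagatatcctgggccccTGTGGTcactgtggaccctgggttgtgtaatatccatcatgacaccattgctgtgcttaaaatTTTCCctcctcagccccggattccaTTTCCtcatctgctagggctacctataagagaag
Xcl1: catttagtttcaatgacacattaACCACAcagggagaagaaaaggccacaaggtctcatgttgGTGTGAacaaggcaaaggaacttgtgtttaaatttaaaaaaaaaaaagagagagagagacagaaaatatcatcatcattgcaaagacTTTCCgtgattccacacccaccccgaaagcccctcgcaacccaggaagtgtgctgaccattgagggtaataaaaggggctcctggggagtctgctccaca
Both strands were searched for 8 motifs, which were chosen with the data known. The NFAT core GGAAA matched at 2 places for Ccl3 and 1 for Xcl1, and 55.6% of 27025 promoter windows of the same length hold it. The RUNX core TGTGGT matched at 1 place in each (14.2% of windows), and the T-box core GTGTGA at 1 place in Xcl1 and none in Ccl3 (12.2% of windows). The AP-1 motif TGANTCA (6.87% of windows), the CRE motif TGACGTCA (1.62%), the STAT motif TTCNNNGAA (7.18%), the letters TATAAA (13.0%) and the NF-kB consensus (3.75%) had no match in either window. The searched motifs do not overlap each other at these places. A match of these lengths is a description of the letters and shows no binding.

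Of the receptors of these ligands, Ccr1, a receptor for CCL3 and CCL5, stood higher in OA. It averaged 113 ± 6.72 TPM in OA and 87.2 ± 2.92 TPM in control (SD, n = 3 each; log2 0.37, SE 0.0639, adjusted p = 0.0260, limma). Xcr1, the receptor of XCL1, was not listed, and its level is not known here.

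Of the 38 genes fixed as chemokine ligands, 12 besides the 4 were listed, of which 8 rose, 3 fell and 1 did not pass, where 36.0% of all listed genes rose and 40.1% fell. Their median log2 fold change was 0.54, against 0.14 over all 559 genes. Beside Ccl6 and Ccl9, the monocyte-attracting genes Ccl2 and Ccl7 rose, at 117 ± 8.82 TPM in OA and 74.6 ± 10.1 TPM in control for Ccl2 and 18.0 ± 1.69 TPM in OA and 10.5 ± 0.810 TPM in control for Ccl7. The neutrophil-attracting genes Cxcl1, Cxcl2, Cxcl3 and Cxcl5 rose by log2 fold changes of 1.23, 0.97, 1.16 and 0.44. The interferon-induced genes Cxcl9 and Cxcl10 fell by 1.14 and 0.58 on the log2 scale, and Ccl24 (eotaxin-2) fell by 0.98. Ppbp, which encodes a platelet chemokine, stood at 675 ± 42.9 TPM in OA and 582 ± 39.0 TPM in control and did not pass (adjusted p = 0.0514, limma). Ccl3 was the most abundant of the 16 listed ligands in both groups. With control replicate 2 or control replicate 3 left out, 8 of the 12 rose and 1 fell.

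**Figure D4:**
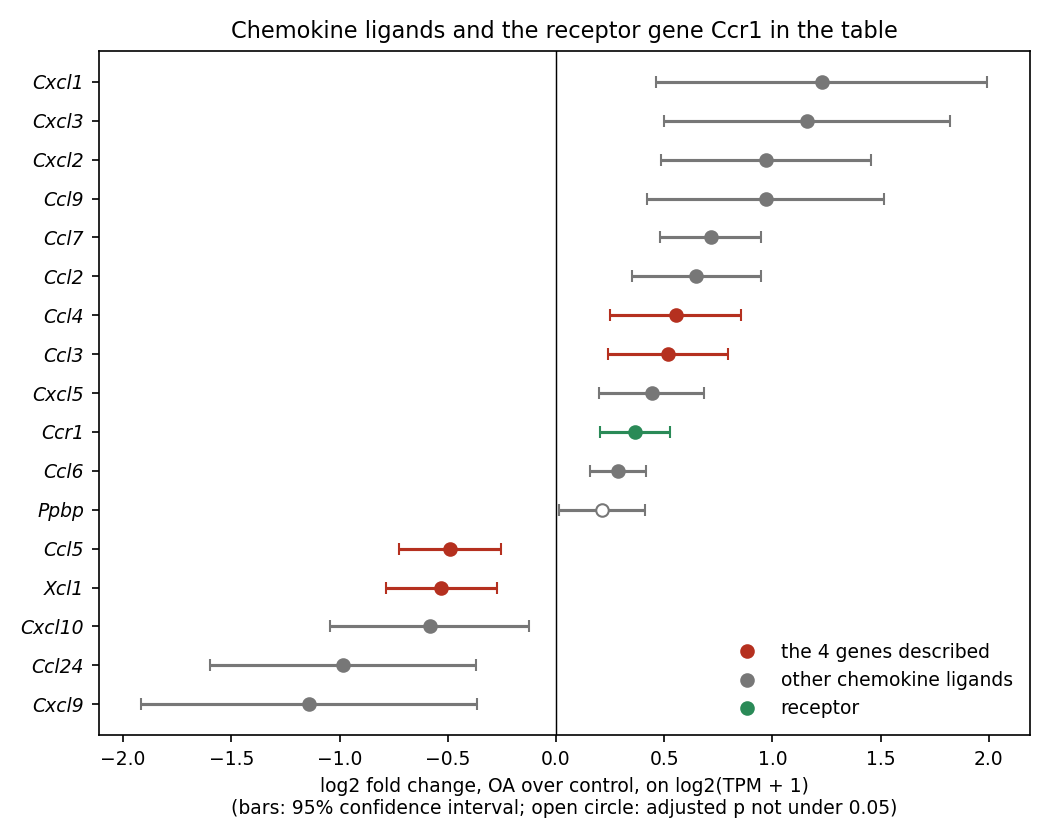
Log2 fold change of OA over control on log2(TPM + 1) (x axis, with 95% confidence intervals from limma) for the 16 listed chemokine ligands and the receptor gene Ccr1, with the 4 genes described in red, other ligands in grey and Ccr1 in green. Ccl3 and Ccl4 lie in the middle of the ligands that were higher, and Ccl5 and Xcl1 are the smallest of the 5 ligand falls.

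Among other secreted products of NK cells, 12 of 17 were listed, of which 10 fell and 2 rose, where 40.1% of all listed genes fell and 36.0% rose. Their median log2 fold change was −0.52, against 0.14 over all 559 genes. Of the falls, Gzma, Gzmb and Prf1 are also on the NK cell marker list. By smallest adjusted p they were led by Tnfsf10 (TRAIL, a death ligand), which averaged 9.62 ± 1.13 TPM in OA and 14.0 ± 1.01 TPM in control, Lta (lymphotoxin alpha) at 229 ± 38.8 TPM in OA and 359 ± 18.5 TPM in control, and Il13 at 166 ± 18.2 TPM in OA and 244 ± 33.4 TPM in control. The 2 that rose were Il10, at 44.4 ± 3.89 TPM in OA and 30.9 ± 3.27 TPM in control, and Tnf, named after its value was seen, at 627 ± 24.1 TPM in OA and 551 ± 27.6 TPM in control (SD, n = 3 each; adjusted p = 0.0407, limma). Both are also made by macrophages, and which cells the transcripts of these products came from, rising or falling, was not tested. Without OA replicate 1, 1 rose and 9 fell, with libraries scaled to equal medians 1 rose and 8 fell, without control replicate 2, 1 rose and 0 fell, and without control replicate 3, 0 rose and 1 fell.

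Transcription regulators induced by activation, of which 9 of 41 were listed, gave 5 that rose, 3 that fell and 1 that did not pass (median log2 fold change 0.25), where 76.0% of all listed genes were called in either direction. With libraries scaled to equal medians, 5 rose and 0 fell. Egr1, an immediate early gene, averaged 315 ± 2.91 TPM in OA and 257 ± 7.09 TPM in control, Fos 90.4 ± 12.6 TPM in OA and 62.5 ± 3.13 TPM in control, and Nr4a1, an orphan nuclear receptor gene, 113 ± 5.13 TPM in OA and 84.8 ± 9.15 TPM in control. Nfkbiz, which encodes a nuclear IkB protein, averaged 133 ± 1.80 TPM in OA and 112 ± 4.79 TPM in control (SD, n = 3 each). Eomes, Jund and Ikzf3 fell, and 0 fell without OA replicate 3, without control replicate 2 or without control replicate 3. Without control replicate 2, 3 rose.

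Listed marker transcripts of NK cells and of other cells also differed between the groups, as every listed gene had to. The libraries carry NK cell markers, and Ncr1, Klrk1, Klrd1 and Nkg7 were present in all 6. Of 12 listed NK cell markers of 30 on the list, all 12 fell, where 40.1% of all listed genes fell and 36.0% rose, and 5 fell with libraries scaled to equal medians. Their sum was 3003 to 3857 TPM in OA and 4561 to 5442 TPM in control. Monocyte, macrophage and dendritic cell genes had 13 of 38 markers in the table, of which 10 rose and 3 fell (6 and 2 with libraries scaled to equal medians), with a sum of 2518 to 2635 TPM in OA and 2022 to 2262 TPM in control. Neutrophil, mast cell and basophil genes had 5 of 24, of which 3 rose and 2 fell (3 and 1 with scaled libraries; sum 903 to 966 TPM in OA and 709.8 to 815 TPM in control). B cell and plasma cell genes had 7 of 21 markers in the table, of which 6 rose and 0 fell (555 to 648 TPM in OA and 360.5 to 446 TPM in control), and both listed T cell markers of 19, Cd28 and Icos, fell (1 with scaled libraries; 194 to 240 TPM in OA and 259 to 291 TPM in control). No listed marker of these lists was at 0 in any library. Without control replicate 2, and without control replicate 3, 0 NK cell markers fell in limma; 4 and 6 myeloid markers rose and 0 fell, 4 and 5 B cell markers rose, 3 and 3 of the neutrophil list rose and 0 fell, and 0 T cell markers fell. Without OA replicate 1, and without OA replicate 3, 6 and 6 myeloid markers rose, and 1 of the neutrophil list fell each time; 8 NK cell markers and 1 T cell marker fell without OA replicate 3. In bulk libraries, fewer cells of a type and less RNA per cell cannot be told apart.

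Set against the summed NK cell markers of the same library, Ccl5 stood at 31.9, 31.5 and 33.2 TPM per 100 TPM of markers in OA replicates 1, 2 and 3, and at 34.5, 32.8 and 29.9 in control replicates 1, 2 and 3. The groups overlapped, and the means were 32.2 ± 0.871 in OA and 32.4 ± 2.30 in control (SD, n = 3 each). Xcl1 stood at 10.5 ± 0.358 TPM per 100 TPM of markers in OA and 10.8 ± 0.431 in control, again with overlap. Ccl3 stood at 78.6 ± 10.9 in OA and 39.7 ± 8.65 in control, and Ccl4 at 35.5 ± 5.01 in OA and 17.5 ± 4.08 in control, with no overlap. On this scale Ccl5 and Xcl1 were level between the groups to within their spread, and Ccl3 and Ccl4 were 1.98 and 2.03 times higher in OA. The listed markers are those that passed the authors' selection, so NK cell markers that differed less are not in the sum. Gzmb and Gzma hold much of the sum, at 1050 and 542 TPM in OA and 1551 and 861 TPM in control. Their ratios of OA to control, 0.677 and 0.630, were the smallest of the 12 markers, where the others ranged from 0.699 (Ncr1) to 0.788 (Il2rb). Of those others, only Ncr1 had a smaller ratio than Ccl5 (0.713), and none had a smaller ratio than Xcl1 (0.693). Ccl5 and Xcl1 thus fell more than most of the markers other than Gzmb and Gzma. The level result for Ccl5 and Xcl1 therefore depends on Gzmb and Gzma and holds for this sum only. A sum without Gzmb and Gzma was not computed.

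Set against the summed monocyte, macrophage and dendritic cell markers, Ccl3 stood at 105 ± 1.502 TPM per 100 TPM of markers in OA and 88.6 ± 7.29 in control, and Ccl4 at 47.5 ± 0.550 in OA and 39.1 ± 3.75 in control, 1.19 and 1.22 times higher in OA with no overlap. Ccl5 and Xcl1 were 0.592 and 0.574 times the control value. This sum too holds only markers that passed the authors' selection, 13 of 38, and 3 of them (Ly6c2, Nos2 and Ccr2) fell. The ratios depend on which markers were listed. Other marker sums were also higher in every OA library. The B cell and plasma cell sum was 555 to 648 TPM in OA and 360.5 to 446 TPM in control. The neutrophil, mast cell and basophil sum was 903 to 966 TPM in OA and 709.8 to 815 TPM in control. Mmp8 (mean 575 TPM in OA and 408 TPM in control) and Il6 (181 and 144 TPM) hold most of that sum. Mmp9 also rose, and Mcpt8 and Kit fell, so the rise of the sum is not one of all its genes. The direction that the myeloid sum shared with Ccl3 and Ccl4 was thus also that of these other sums. The chemokine genes were not set against the B cell or the neutrophil, mast cell and basophil sum. The part of the cell mixture in the 4 differences was not tested.

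**Figure D5:**
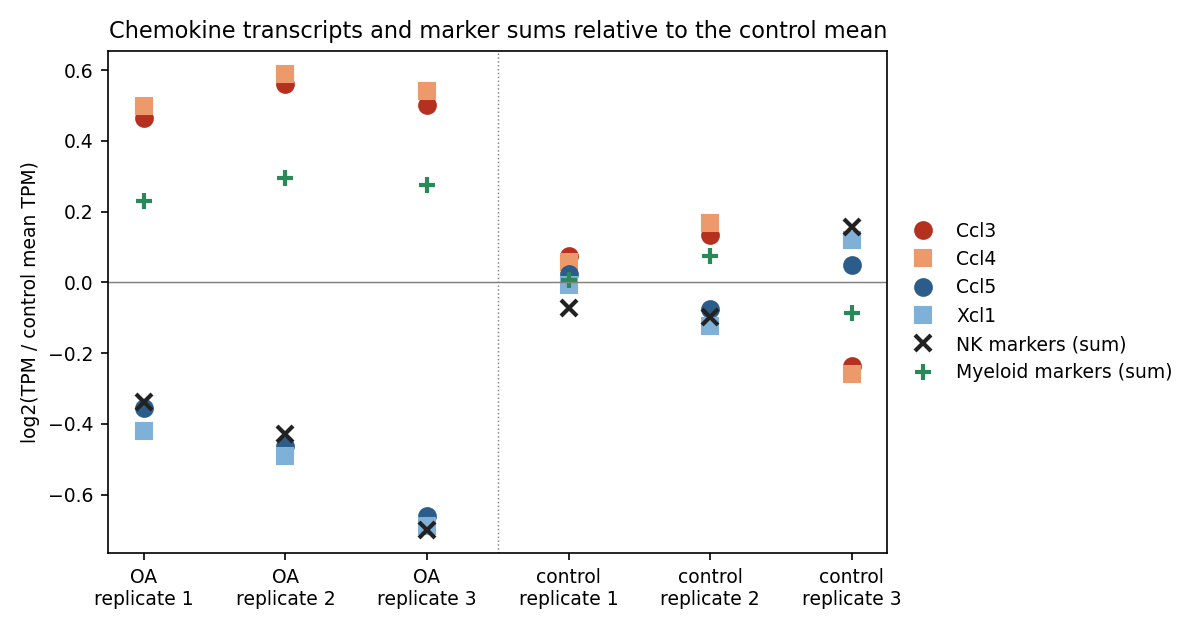
Log2 of the level over the control mean (y axis) in each library, OA on the left and control on the right, for the 4 chemokine genes and for the summed TPM of listed NK cell markers (black crosses) and myeloid markers (green plus signs). Ccl5 and Xcl1 lie near the NK cell marker sum in every library. This closeness depends on Gzma and Gzmb, which fell most of the listed NK cell markers and hold much of the sum. Ccl3 and Ccl4 lie on the same side as the myeloid marker sum in the OA libraries, farther from the control mean. The marker sums of the B cell list and of the neutrophil, mast cell and basophil list, also higher in every OA library, are not shown. In the latter list Mcpt8 and Kit fell.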

How the data were processed

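RNA of 3 OA-treated and 3 control libraries of mouse splenic NK cells was measured by RNA-seq. The submitters' processing notes name RSEM 1.3.1, Bowtie2 and DESeq2 1.4.5 and the build mm10 but give no roles; the annotation, strand setting and filters are not given in the sources used here. Per the file headers, the deposited table holds TPM per library and per group, and the authors' log2 fold change, P value and Q value. It lists 559 genes, with a largest Q value of 0.0499; genes outside it were not analysed here. No pair of libraries within a group was identical, with at most 14 equal values. OA libraries were not compared with control libraries in this check.

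Groups come from the treatment label and columns from the sample titles. The design allowed for several units; as the table holds TPM, limma 3.58.1 (R 4.3.3) was run on log2(TPM + 1) over the whole table, unfiltered and without covariates, at a two-sided Benjamini-Hochberg adjusted p under 0.05. The added 1 makes fold changes of low genes smaller than those of the TPM themselves. The script was tested on simulated data. Ratios of the 6 pairs were tested by exact permutation (scipy 1.17.1). The members and 9 gene lists were chosen with earlier results of these data known. Named genes are the 4, the other listed ligands and receptors (some genes that the rule names are left out here), the 3 nearest to each by likeness, and up to 4 per other list by smallest adjusted p.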

Additional observations from a re-analysis of the deposited data

How the results depend on the processing

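All 4 chemokine genes and all 6 pair ratios kept their direction under every alternative run on them, among them pseudocounts of 0.1 and 5, a minimum mean of 10 TPM, libraries scaled to equal medians, a limma prior with trend and robust fit, and leaving out replicate 3 of both groups. For the 4 genes and for the 4 ratios that cross the pairs, whose groups do not overlap, leaving out libraries could not have turned the direction. With the replicate number as a block, the log2 fold changes were 0.52 for Ccl3, 0.55 for Ccl4, −0.49 for Ccl5 and −0.53 for Xcl1, none passed (adjusted p = 0.115, limma), and 0 listed genes were called higher and 0 lower (149 and 89 at an unadjusted p under 0.05). Correlations of deviations between same-numbered libraries were 0.327, −0.109 and −0.0808, and those between differently numbered libraries ranged from −0.399 to 0.350. Deviations from a mean of 3 libraries are not independent of each other, so these values cannot decide whether the numbers pair the samples. The labels state no pairing, and the main fit used none. If the numbers do pair the samples, the fit with the block applies. With 1 library left out, log2 fold changes ranged from 0.40 to 0.59 for Ccl3, from 0.43 to 0.64 for Ccl4, from −0.56 to −0.41 for Ccl5 and from −0.59 to −0.45 for Xcl1. The number of listed genes called ranged from 0 to 177 higher and from 0 to 187 lower, with 0 and 0 without OA replicate 2 (159 and 168 at an unadjusted p under 0.05) and 0 and 0 without control replicate 1 (171 and 168). Libraries scaled to equal medians had 162 genes called higher and 82 called lower (66.4% higher), and TPM as deposited had 201 and 224 (47.3% higher); all 4 chemokine genes passed under both. The causes of these differences were not tested. The depth of the libraries is unknown, so counting error could not be set beside any value.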
